A study of Mus musculus with 9 samples.

Results

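The fibrillar and type VI collagen chains were followed through 9 single-cell libraries of the mouse fibroblast line NIH3T3-CG, which is of embryonic origin. The members are 9 genes matched by symbol, out of 30407 features shared by all libraries. Col1a1, Col1a2, Col3a1, Col5a1, Col5a2 and Col11a1 encode fibrillar chains, and Col6a1, Col6a2 and Col6a3 encode type VI chains. All 9 were found under the same symbol in both experiments and passed the filter on low counts in every comparison.

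Cells were treated with SAG, an agonist of Smoothened that switches on Hedgehog signalling, and counted by unique molecular identifiers (UMIs) at the 3′ end of transcripts. The libraries form 3 arms. In Experiment 2 with Dox, cells were sampled at 0, 19 and 30 h of SAG, with 1 library at each time. In Experiment 2 without Dox the times were the same, again with 1 library each. Experiment 1 was sampled at 0, 17 and 30 h, and is taken as without Dox because its labels do not mention it. Which gene, if any, Dox switches on is not given in the labels, and no library without SAG is labelled for the later times, so SAG time and time in culture cannot be told apart. Whether the 2 experiments were separate cultures is not stated, so a p-value here reflects how far these libraries scatter, and that scatter may be technical.

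Fibrillar collagens are assembled from 3 chains wound into a triple helix, which is secreted and laid down as cross-banded fibrils. Type I collagen, the main fibril of skin, bone and tendon, combines alpha chains from Col1a1 and Col1a2, and Col3a1 supplies every chain of type III collagen, which is mixed into the fibrils of soft connective tissue. Type V collagen, from Col5a1 and Col5a2, starts fibrils and limits their width. Col11a1 encodes the corresponding chain of type XI collagen, best known from cartilage. Type VI collagen, from Col6a1, Col6a2 and Col6a3, forms beaded filaments close to cells and is made chiefly by fibroblasts.

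Between 571 and 6520 cells were kept in each library, with a floor of 5000 UMIs and a ceiling of 10% for the mitochondrial share, and their counts summed to between 19422658 and 106128757 UMIs. The median cell had 28335 to 48188 UMIs, except in the library without Dox at 19 h of Experiment 2, where it had 8025. Cells with under 1% mitochondrial UMIs made up 17.9% to 19.7% of the libraries at 30 h with and without Dox and at 19 h with Dox, all of Experiment 2, and at most 1.41% elsewhere. No pair of libraries shared more than 0.513% of the barcodes. Summed levels of the 8 fibroblast markers that are not members lay between 5149 and 9197 CPM, the UMIs of a gene scaled to a fixed total per library with TMM factors. Those of the endothelial list lay between 0.269 and 0.605 CPM and those of the epithelial list between 0.135 and 0.703, and 3 of the 5 osteoblast markers were at 0 in every library. The smooth muscle or myofibroblast list summed to between 126 and 499 CPM, with Acta2 at 70.2 to 315 and Myh11 at or under 0.204. The macrophage list lay between 10.2 and 16.8 CPM. Gli1, a direct Hedgehog target, had 3.98 to 25.8 CPM in the 6 SAG libraries, against 0.0509 to 0.206 in the 3 libraries at 0 h.

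The upstream bases of 4 chains are shown because they stand at different ends of the comparisons below: Col11a1 and Col6a3 had the largest differences with Dox, Col3a1 was the chain not higher with Dox, and Col6a2 had the largest estimate for SAG. Each run is the 250 bases before the RefSeq start in GRCm38.p6, read 5′ to 3′ on the gene's strand, and none of it is inside the gene in GENCODE vM21. Capitals mark 3 motifs searched on both strands, which are TATAAA (the TATA box), CCAAT (the CCAAT box) and GGGCGG (the GC box); matches on the opposite strand appear as their reverse complement.
Col11a1: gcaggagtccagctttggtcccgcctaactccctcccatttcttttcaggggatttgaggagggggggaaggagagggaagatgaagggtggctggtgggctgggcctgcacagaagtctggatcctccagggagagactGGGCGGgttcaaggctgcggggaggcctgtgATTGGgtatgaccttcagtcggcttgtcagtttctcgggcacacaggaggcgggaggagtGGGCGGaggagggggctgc
Col6a3: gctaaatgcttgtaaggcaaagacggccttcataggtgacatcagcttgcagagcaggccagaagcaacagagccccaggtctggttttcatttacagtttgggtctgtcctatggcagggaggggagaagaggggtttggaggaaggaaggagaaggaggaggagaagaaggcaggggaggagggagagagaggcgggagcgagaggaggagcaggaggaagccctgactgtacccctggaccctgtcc
Col3a1: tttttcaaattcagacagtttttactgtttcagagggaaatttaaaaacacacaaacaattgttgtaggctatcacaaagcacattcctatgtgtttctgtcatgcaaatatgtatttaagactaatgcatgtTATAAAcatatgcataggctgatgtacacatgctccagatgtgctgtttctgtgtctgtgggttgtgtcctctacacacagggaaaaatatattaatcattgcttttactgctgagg
Col6a2: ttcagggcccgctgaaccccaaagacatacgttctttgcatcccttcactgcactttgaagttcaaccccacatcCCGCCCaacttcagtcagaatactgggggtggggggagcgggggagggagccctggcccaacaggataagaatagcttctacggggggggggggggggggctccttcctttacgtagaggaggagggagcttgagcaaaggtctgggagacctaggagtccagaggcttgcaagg
The Col11a1 run is chr3:114030290-114030539 on the plus strand, and Col6a3 is chr1:90843972-90844221 on the minus strand. The Col3a1 run is chr1:45311288-45311537 on the plus strand, and Col6a2 is chr10:76623631-76623880 on the minus strand. The base composition differed widely, with 35.2% G and C before Col3a1, 57.2% before Col6a3, 59.2% before this start of Col6a2 and 62.4% before Col11a1, beside a median of 52.4% over all entries. TATAAA was found before Col3a1, at 117 bases upstream of the start, and in 12.4% of the 32851 entries. GGGCGG was found at 110 and 19 bases before Col11a1 and, on the opposite strand, at 175 bases before Col6a2, and in 32.7% of all entries, and CCAAT was found on the opposite strand before Col11a1 and in 33.9%. A second RefSeq start of Col6a2, at 76623404, had 3 matches of GGGCGG on the opposite strand and 64.4% G and C. None of the motifs was found before Col6a3. GACCACCCA, the sequence bound by GLI factors, was found in 0.225% of all entries and in none of the windows of the 7 members with an entry. In GENCODE vM21 on GRCm38, the type I genes were Col1a1 (ENSMUSG00000001506) at chr11:94936224-94953042 on the plus strand and Col1a2 (ENSMUSG00000029661) at chr6:4504814-4541544 on the plus strand, and the type III gene was Col3a1 (ENSMUSG00000026043) at chr1:45311538-45349706 on the plus strand. The type V and XI genes were Col5a1 (ENSMUSG00000026837) at chr2:27886425-28039514 on the plus strand, Col5a2 (ENSMUSG00000026042) at chr1:45374321-45503282 on the minus strand and Col11a1 (ENSMUSG00000027966) at chr3:114030540-114220718 on the plus strand. The type VI genes were Col6a1 (ENSMUSG00000001119) at chr10:76708792-76726168 on the minus strand, Col6a2 (ENSMUSG00000020241) at chr10:76595762-76623630 on the minus strand and Col6a3 (ENSMUSG00000048126) at chr1:90765923-90843971 on the minus strand. Col3a1 and Col5a2 are neighbours on chromosome 1, with 24.6 kb between their ends, and Col6a2 and Col6a1 are neighbours on chromosome 10, 85.2 kb apart.

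**Figure D1:**
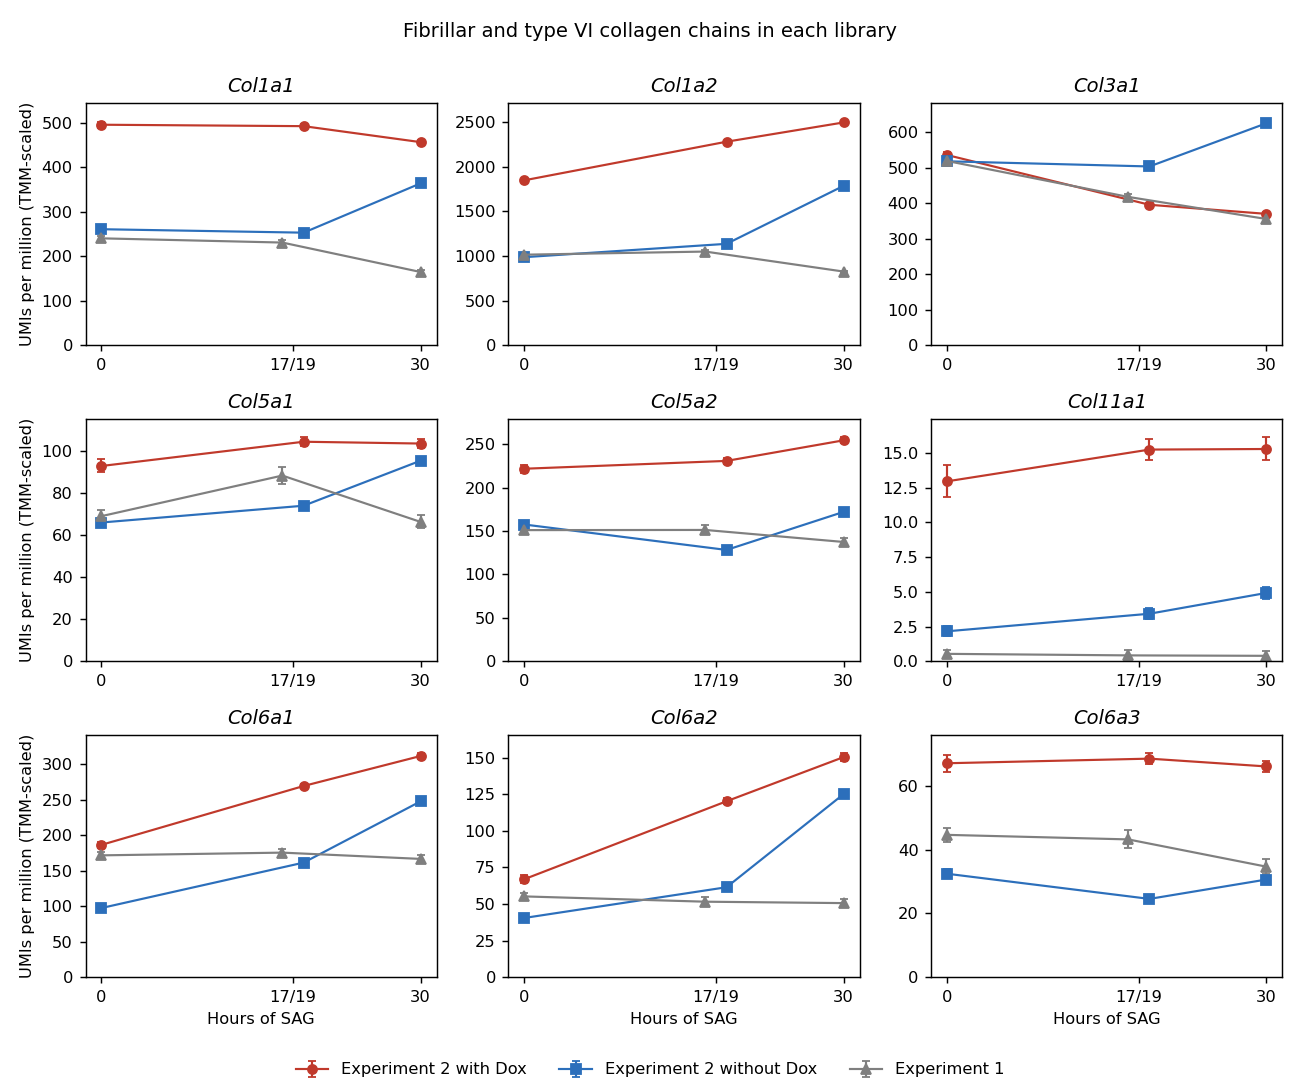
Level of each chain in CPM (TMM-scaled, linear axis from 0) against hours of SAG, with 1 line for each arm and bars for 95% Poisson intervals of counting. At each time the Dox library lies above the library without Dox for every chain but Col3a1, and Col6a1 and Col6a2 are higher at each later time in both arms of Experiment 2.

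Together the 9 chains made up 0.317% to 0.497% of UMIs with Dox in Experiment 2, 0.150% to 0.340% without Dox in Experiment 2, and 0.199% to 0.265% in Experiment 1. CPM from 3′ tags count 1 tag for each molecule, so they need no scaling by length. Fewer expressing cells and less RNA per cell cannot be told apart in these summed levels. Col1a2 was the most abundant chain in every library and Col11a1 the least. The 95% counting intervals shown in the plot of levels cover sampling of molecules only.

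Neither type I chain was called with SAG. Col1a1 had 492 and 456 CPM at 19 and 30 h with Dox against 496 at 0 h, 253 and 364 against 261 without Dox, and 231 and 165 at 17 and 30 h of Experiment 1 against 240. Col1a2 had 2280 and 2496 against 1848 with Dox, 1136 and 1785 against 987 without Dox, and 1050 and 826 against 1015 in Experiment 1. At 30 h both chains lay above their 0 h level in Experiment 2 without Dox and below it in Experiment 1. SAG over 0 h across the 3 arms gave a log2 change of -0.04 ± 0.17 (SE) for Col1a1 and 0.26 ± 0.19 for Col1a2 (edgeR quasi-likelihood test, adjusted p = 0.889 and 0.394). Col3a1, the type III chain, had 395 and 370 CPM at 19 and 30 h with Dox against 535 at 0 h, 503 and 625 against 517 without Dox, and 417 and 355 at 17 and 30 h of Experiment 1 against 518. Its change was -0.28 ± 0.15 on the log2 scale (adjusted p = 0.262). At 30 h without Dox in Experiment 2 it was above its 0 h level, unlike the other SAG libraries.

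None of the 9 chains was called in SAG over 0 h, beside 0.715% of all 13837 genes tested (27 genes, or 0.195%, higher and 72, or 0.52%, lower). At unadjusted p under 0.05 (edgeR) were 2 of the 9 chains, Col6a1 and Col6a2, beside 3572 of the 13837 genes. The chains thus did not exceed the share of all genes. Col6a1 had 269 and 311 CPM at 19 and 30 h with Dox against 186 at 0 h, and 161 and 248 against 97.3 without Dox. In Experiment 1 it had 175 and 166 at 17 and 30 h against 171. Col6a2 had 120 and 150 against 66.9 with Dox, 61.4 and 125 against 40.4 without Dox, and 51.5 and 50.6 against 55.1 in Experiment 1. In Experiment 2 both chains were above the 0 h level of their own arm in 4 of 4 SAG libraries, whereas in Experiment 1 the differences from 0 h lay between -0.12 and 0.03 on the log2 scale. The share of all genes above in these 4 libraries was not counted. Over all 6 SAG libraries, 0 of the 9 chains were above their own 0 h level in each, beside 9.97% of 14354 genes. Likewise 0 were below in each, beside 9.37%. The log2 changes were 0.54 ± 0.20 (SE) for Col6a1 and 0.67 ± 0.27 for Col6a2 (edgeR, adjusted p = 0.144 and 0.166). Without the 0 h library of Experiment 1 both were called, with changes of 0.84 and 1.10, beside 28.7% of all genes called in that fit. They were also called without the filter on low counts, beside 10.7% of all genes. Without the 0 h library of Experiment 2 without Dox the changes were 0.30 and 0.42, and neither was called. The response to SAG in Experiment 2 less that in Experiment 1, a comparison added after the data were seen, was 0.86 for Col6a1 and 1.22 ± 0.39 for Col6a2 (edgeR, adjusted p = 0.166 and 0.136). It called none of the chains, beside 0.397% of 14354 genes.

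Col6a3, the third type VI chain, which carries a long string of adhesive domains, did not follow them. It had 68.6 and 66.2 CPM at 19 and 30 h with Dox against 67.2 at 0 h, 24.6 and 30.7 against 32.5 without Dox, and 43.3 and 34.7 against 44.7 in Experiment 1. Its change was -0.15 ± 0.12 (adjusted p = 0.419). Col5a1 had 104 and 103 CPM against 92.7 with Dox, 73.8 and 95.2 against 65.8 without Dox, and 88.1 and 66.1 against 68.9 in Experiment 1. Col5a2 had 231 and 255 against 222 with Dox, 128 and 172 against 157 without Dox, and 151 and 137 against 151 in Experiment 1. Neither type V chain moved one way in all arms. Their estimates were 0.22 ± 0.13 and -0.01 ± 0.13 (edgeR, adjusted p = 0.29 and 0.978), and that of Col11a1 was 0.43 ± 0.21 (adjusted p = 0.221).

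Without Dox, none of the chains was called at 30 h over 0 h, beside 0.446% of 14354 genes (0.139% higher and 0.307% lower), nor at 17 to 19 h over 0 h, beside 0.111% (0.0557% higher and 0.0557% lower), nor at 30 h over 17 to 19 h, beside 0.00697%. At 30 h Col6a2 changed by an estimated 0.78 ± 0.31, Col11a1 by 0.75 ± 0.34 and Col6a1 by 0.65 ± 0.32 on the log2 scale (adjusted p = 0.363, 0.423 and 0.475). In the 30 h comparison these 3 chains were called higher without the 0 h library of Experiment 1, beside 8.89% of all genes, and Col6a2 also without its 30 h library, beside 2.01%. These fits keep 2 residual degrees of freedom. In the next comparison the response without Dox pools both experiments, while that with Dox rests on Experiment 2 alone. Its estimates were 0.09 for Col6a1 and 0.39 for Col6a2. Within Experiment 2 the order was the opposite at 30 h over 0 h. Col6a1 differed by 0.74 with Dox and 1.35 without, and Col6a2 by 1.17 and 1.63, on the log2 scale. The response at 30 h with Dox less that without called none of the chains and no other gene (206 genes at unadjusted p under 0.05, 0 called by DESeq2, with 76 at unadjusted p under 0.05).

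Chains of a complex can be set against each other within a library, where scaling plays no part. Col1a1 per Col1a2 was 0.216 and 0.183 at 19 and 30 h with Dox against 0.268 at 0 h, 0.223 and 0.204 against 0.264 without Dox, and 0.22 and 0.199 at 17 and 30 h of Experiment 1 against 0.237. The ratio was below the 0 h value of its own arm in 6 of 6 SAG libraries, by 0.31 on the log2 scale. Col6a3 per Col6a1 was 0.255 and 0.212 against 0.361 with Dox, 0.152 and 0.124 against 0.334 without Dox, and 0.247 and 0.208 against 0.261 in Experiment 1. It too was below in 6 of 6, by 0.70 on the log2 scale. Summed type VI per summed fibrillar UMIs was 0.13 and 0.143 against 0.0999 with Dox, 0.118 and 0.132 against 0.0855 without Dox, and 0.139 and 0.162 against 0.136 in Experiment 1, above the 0 h value in 6 of 6 and by 0.38 on average. Each of the 3 ratios gave p = 0.037 in the exact permutation test that reassigns the 0 h library within each arm (27 arrangements, two-sided), the smallest value it can give, and 0.0988 adjusted over the 8 ratios examined, which misses 0.05. With up to 20% mitochondrial UMIs Col1a1 per Col1a2 gave an exact permutation p of 0.074, and Col3a1 per Col1a1, lower in 6 of 6, gave 0.037. Ratios of single chains are not corrected for differences in capture, so only shifts between libraries are read.

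**Figure D2:**
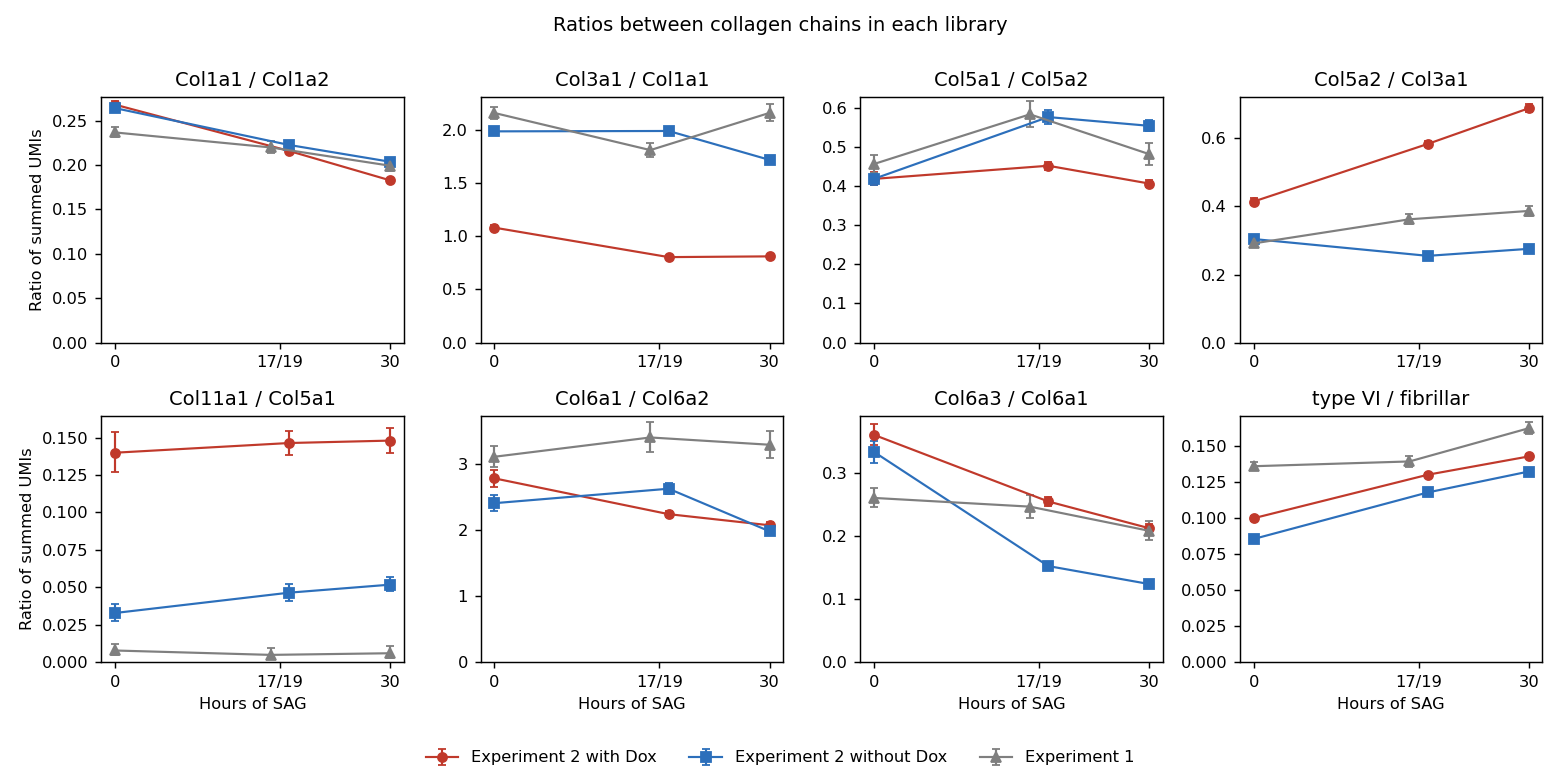
Ratio of summed UMIs of pairs of chains (linear axis from 0) against hours of SAG, with 1 line for each arm and bars for exact 95% intervals of counting. Col1a1 per Col1a2 and Col6a3 per Col6a1 are lower at both SAG times than at 0 h in each of the 3 arms, and type VI per fibrillar is higher.

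The other 5 ratios shifted less evenly. Col5a1 per Col5a2 was 0.23 higher with SAG on the log2 scale (exact permutation p = 0.111) and above its own 0 h value in 5 of 6 libraries. Col3a1 per Col1a1 was 0.22 lower (p = 0.222), Col5a2 per Col3a1 0.26 higher (p = 0.185), Col6a1 per Col6a2 0.11 lower (p = 0.444) and Col11a1 per Col5a1 0.04 higher (p = 0.815), all by the exact permutation test.

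With Dox, 8 of the 9 chains were higher than without it in Experiment 2, beside 38.4% of the 13645 genes tested that were called in either direction, 19.2% higher (2617 genes) and 19.2% lower (2616 genes). Without TMM factors the same 8 were called higher, beside 54.4% of all genes called, of which 93.5% were higher (6940 genes). Without SAG time as a term Col11a1 and Col6a3 were the only chains called, beside 1.46% of all genes. Col3a1 was the chain not called higher in the fit with TMM factors and SAG time. The other 8 were higher at all 3 times, as were 33.4% of all genes. The Dox libraries are single ones at each time, and the same 8 were called when cells under 1% mitochondrial UMIs were left out. The Dox fit takes the 3 SAG times in place of replicates and keeps 2 residual degrees of freedom. Dox and any other difference between the cultures or preparations of the 2 arms cannot be told apart.

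Col11a1, the type XI chain, differed most. It had 13, 15.3 and 15.3 CPM at 0, 19 and 30 h with Dox, against 2.16, 3.42 and 4.92 without it, counted from 482, 1493 and 1365 UMIs with Dox and 127, 292 and 512 without. Its groups do not overlap, which held with Dox above for 5 of the 9 chains and 12.2% of 14354 genes. Its log2 change was 2.08 ± 0.14 (SE, edgeR, adjusted p = 1.94e-16). Summed levels of the 6 chondrocyte markers were 22.6, 52.4 and 67.3 with Dox against 7.03, 20.2 and 26.7 without. Sox9, a regulator of cartilage genes, made up nearly all of that list, Col2a1 stayed at or under 0.0269 CPM and Hapln1 was at 0 in 8 of 9 libraries. The part of Sox9 in the difference of Col11a1 was not tested. Sox9 itself changed by 1.46 ± 0.12 with Dox (adjusted p = 1.13e-13). In Experiment 1 Col11a1 stood at 18, 9 and 10 UMIs, or 0.387 to 0.529 CPM, below every library of Experiment 2.

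Among type VI chains Col6a3 differed most, with 67.2, 68.6 and 66.2 CPM at 0, 19 and 30 h with Dox against 32.5, 24.6 and 30.7 without. It was higher at every time, by 1.21 ± 0.12 on the log2 scale (adjusted p = 6.24e-11). Col6a1 changed by 0.67 ± 0.14 (adjusted p = 0.000168) and Col6a2 by 0.65 ± 0.13 (adjusted p = 0.000137). At 30 h their separate differences were smallest, 0.33 and 0.27, beside 0.94 and 0.73 at 0 h.

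The type I chains were higher with Dox by 0.74 ± 0.14 for Col1a1 and 0.79 ± 0.15 for Col1a2 (edgeR, adjusted p = 8.38e-05 and 7.75e-05). Levels of Col1a1 were 496, 492 and 456 CPM with Dox at 0, 19 and 30 h, against 261, 253 and 364 without, and those of Col1a2 1848, 2280 and 2496 against 987, 1136 and 1785. For neither chain did the groups overlap, as was also so for Col5a2, Col6a3 and Col11a1. Col5a2 changed by 0.63 ± 0.13 (adjusted p = 0.000208) and Col5a1 by 0.37 ± 0.13 (adjusted p = 0.0186). Without the 0 h library of either group Col5a1 and Col6a1 were no longer called, with changes of 0.30 or 0.31 and 0.53.

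Col3a1 had 535, 395 and 370 CPM with Dox at 0, 19 and 30 h, against 517, 503 and 625 without. The difference was 0.05 at 0 h, -0.35 at 19 h and -0.76 at 30 h on the log2 scale. The estimate was -0.36 ± 0.15 (edgeR, adjusted p = 0.0514). It was called lower by DESeq2, on cells thinned to 5000 UMIs, with up to 20% mitochondrial UMIs and without either library at 19 h. Leaving out a library moved the estimate to between -0.56, without a 0 h library, and -0.15, without the 30 h library with Dox. Without TMM factors the median of all genes shifted to 0.41 and Col3a1 was at 0.04, while Col11a1 was at 2.49 and Col5a1, the smallest of the 8, at 0.76. Col3a1 thus lay below the median of all genes under both scalings, which with TMM factors was 0.015. As ratios, Col3a1 per Col1a1 was 1.08, 0.803 and 0.81 with Dox against 1.98, 1.99 and 1.72 without, a difference of -1.09 ± 0.22 (SD, n = 3 times). Col5a2 per Col3a1 was 0.415, 0.584 and 0.689 with Dox against 0.304, 0.255 and 0.275 without, and Col11a1 per Col5a1 was 0.14, 0.146 and 0.148 against 0.0327, 0.0463 and 0.0517. An exact sign-flip permutation test over 3 pairs cannot go below p = 0.25, which each of the 3 ratios gave. Among the 8 ratios examined, Col5a1 per Col5a2, Col6a3 per Col6a1 and type VI per fibrillar gave it too. Their differences were -0.27, 0.54 and 0.16. Col1a1 per Col1a2 and Col6a1 per Col6a2 did not reach it.

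**Figure D3:**
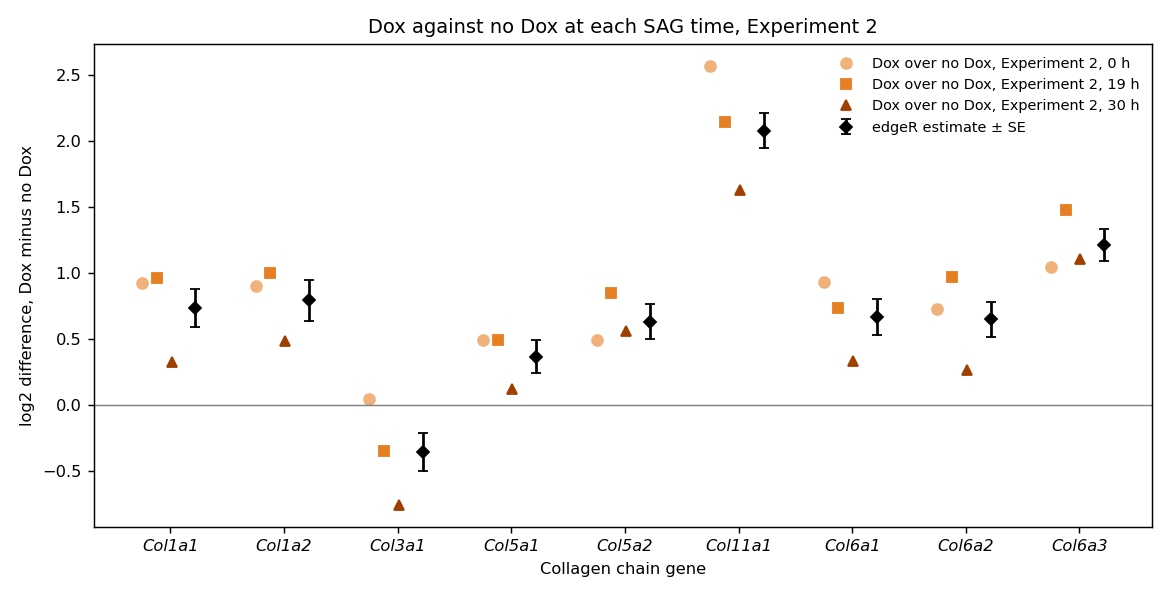
Differences in log2 CPM with Dox minus without at each SAG time of Experiment 2 (circles, squares and triangles), with the edgeR estimate and its standard error (diamonds). Every estimate but that of Col3a1 lies above 0, Col11a1 is the highest at 2.08, and for Col3a1 the differences are 0.05, -0.35 and -0.76 at 0, 19 and 30 h.

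The genes that fold, secrete and bind collagen, taken from lists, were called in both directions with Dox, beside 19.2% of all genes higher and 19.2% lower. Of 19 enzymes and chaperones of collagen folding tested, 5 were higher and 6 lower. P3h3, a prolyl 3-hydroxylase family member, was higher by 0.77, while P4ha2, a subunit of prolyl 4-hydroxylase, was lower by 0.79 and Hspa5, the endoplasmic reticulum chaperone BiP, lower by 0.73. Among 14 processing and secretion genes 3 were higher, with Bmp1, the C-propeptidase, at 0.66 and Pcolce, its enhancer, at 0.45, and 1 was lower, Adamts2, the N-propeptidase, at -0.47. Of 16 other collagen chains tested 6 were higher and 1 lower, led by Col27a1 at 1.58, another fibrillar chain, and Col16a1 at 1.40. Type IV chains Col4a2 and Col4a1, of basement membranes, were higher by 1.18 and 1.14. Of 20 regulators of collagen genes 9 were higher and 1 lower, and the anthrax toxin receptor Antxr1, which binds type VI collagen, was higher by 1.24. That gene led 19 receptors and degrading enzymes, of which 5 were higher and 4 lower, Mmp14, a membrane-bound collagenase, being higher by 0.92 and Ctsl, the protease cathepsin L, lower by 0.87. Of 7 crosslinking genes 2 were higher and 2 lower, with Loxl3 and Loxl1, both lysyl oxidases, at 0.80 and 0.57 and Tgm2, a transglutaminase, at -1.33. Of 19 targets of TGF-beta and YAP 4 were higher and 5 lower. Of 14 genes listed as Hedgehog targets 9 were higher and 1 lower, with Gas1 and Cdon of smallest p, at 1.61 and 1.30. That list mixes directions with SAG. Gas1 was below its own 0 h level in every SAG library, with 112 CPM at 30 h with Dox against 274 at 0 h, whereas Gli1 was above. With SAG, none of 20 folding genes, 14 processing genes, 7 crosslinking genes, 20 receptors and degrading enzymes or 17 other chains was called. Col4a1 and Col4a2 had estimates of 2.12 and 1.80 (edgeR, adjusted p = 0.0509 and 0.058). Thbs1 and Ankrd1 were lower, by 1.18 and 1.27, among 19 targets of TGF-beta and YAP, and Klf4 was higher by 0.94 among 20 regulators. Of 14 Hedgehog targets 2 were higher, Gli1 and Ptch1.

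Between the experiments without Dox, Col11a1 was called higher in Experiment 2, beside 40.5% of the 13015 genes tested that were called in either direction, 20.6% higher (2677 genes) and 19.9% lower (2593 genes). Without TMM factors 43.8% of all genes were called, and 21.2% of those calls were higher. Col11a1 had 127, 292 and 512 UMIs in Experiment 2 against 18, 9 and 10 in Experiment 1, a log2 change of 2.87 ± 0.34 (edgeR, adjusted p = 5.56e-06). Software version, annotation, depth and experiment cannot be told apart here. Col6a3 had a change of -0.48 ± 0.19 (edgeR, adjusted p = 0.0504). It was called lower without TMM factors, with a change of -0.94 beside a median of all genes of -0.47, and without either 30 h library, with changes of -0.64 and -0.60. Col1a1, Col1a2, Col3a1, Col5a1, Col5a2, Col6a1 and Col6a2 lay between -0.12 and 0.47 and were not called. Col6a2 was called higher, by 0.78, when either 0 h library was left out. Of the lists, regulators of collagen genes had 1 of 20 higher and 9 lower, receptors and degrading enzymes 7 of 18 higher and 5 lower, and processing genes 5 of 14 higher and 2 lower. Folding genes had 2 of 20 higher and 4 lower, crosslinking genes 2 of 7 higher, TGF-beta and YAP targets 8 of 19 higher and 5 lower, Hedgehog targets 2 of 13 higher and 3 lower, and other chains 3 of 16 in each direction.

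Within single libraries the chains varied together from cell to cell. Cells with at least 10000 UMIs were thinned to 10000, and Pearson's r of log2 UMIs was taken as a description over the cells of each library, which share depth and preparation. The highest median r over the 9 libraries was 0.517 for Col1a1 with Col1a2, followed by 0.509 for Col1a2 with Col3a1 and 0.416 for Col3a1 with Col6a1. Pairs with the sparse Col11a1 were among the lowest, with medians of 0.0246 to 0.0805. After counting noise was removed, the highest was 0.91 for Col6a1 with Col6a2, the neighbouring type VI genes, and 0.786 for Col1a1 with Col1a2. In 1 or more libraries such values exceed 1, so they rank pairs only. Summed fibrillar and summed type VI UMIs correlated at 0.338 to 0.562.

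The mean r among the 5 fibrillar chains other than Col11a1 averaged 0.4 in SAG libraries against 0.35 at 0 h (exact permutation p = 0.185). Among type VI chains it averaged 0.192 against 0.13, and between both kinds 0.242 against 0.185, each with p = 0.037 in the exact permutation test, the smallest it can give, and 0.0556 adjusted over 3 comparisons. With counting noise removed the type VI and between values gave p = 0.259 and 0.407 in the same exact permutation test and the fibrillar value 0.037, or 0.111 adjusted, and the part of the chains' levels in the shift was not tested. Before noise removal Experiment 2 without Dox was below Experiment 1 at every time in all 3 kinds of pair. With counting noise removed this held for fibrillar pairs, while type VI and between pairs were above Experiment 1 at 2 of the 3 times.

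**Figure D4:**
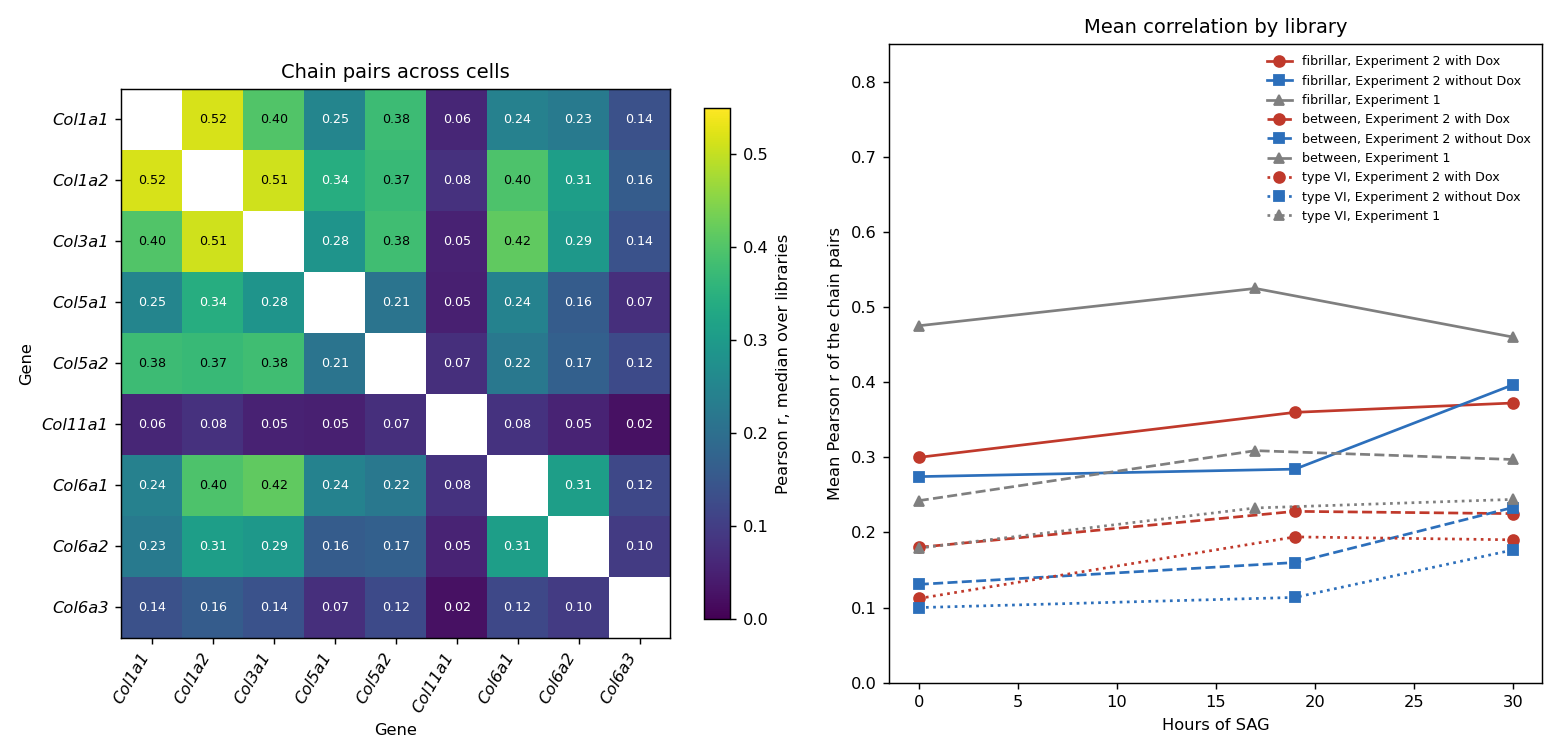
Left, median over 9 libraries of Pearson's r across cells for each pair of chains. Right, mean r of the pairs against hours of SAG for fibrillar, type VI and between pairs, with 1 line for each arm. Type I and III chains form the brightest block, pairs with Col11a1 are near 0, and Experiment 1 has the highest lines for fibrillar pairs.

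Genes most like the summed fibrillar chains across cells, among 8751 genes, were Sparc, a collagen-binding matrix protein, with a median r of 0.556, Lox, which crosslinks collagen, with 0.522, and Fn1, fibronectin, with 0.485. Fstl1, Fbln2, Man2a1, Rrbp1 and Cd248 followed, with 0.346 to 0.322. The median gene had 0.0206. For the summed type VI chains they were Lox at 0.329, Adamts1 at 0.295, Fn1 at 0.291, Vcan at 0.286 and Sparc at 0.284, then Mmp2, Itm2b and Man2a1. The lowest with the fibrillar sum were the ribosomal genes Rps2 at -0.363, Rpsa at -0.347 and Rplp0 at -0.339, then Mif at -0.301, which is not ribosomal. These are abundant genes, with 8.05 to 66.1 UMIs per thinned cell. The part of thinning to a fixed total in such negative values was not tested. Scores over the same cells gave medians of -0.211 for G2 to M genes and -0.218 for S phase genes with the fibrillar sum, and 0.248 for the mitochondrial percent, while the UMIs of the cell before thinning gave 0.00636, with libraries from -0.192 to 0.208, and smooth muscle genes 0.0614.

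Spread between cells differed by chain. The excess coefficient of variation, which leaves out counting noise, had a median over libraries of 94.9% for Col3a1, 71.6% for Col5a2, 70% for Col1a1, 63.3% for Col6a1 and 53.4% for Col1a2. Col1a2 was the most even chain in its median, with a middle cell at 28 UMIs per 10000 at 30 h with Dox and a 90th percentile of 47, whereas Col3a1 in the same library had a middle cell at 3 UMIs and a 90th percentile of 10. Col1a1 spread by 54% to 56.6% with Dox, 62.6% to 70% without Dox in Experiment 2, and 114% to 137% in Experiment 1. Col3a1 spread by 80.9% to 86.4%, 88.1% to 95.4% and 121% to 141% in the same order. Col1a2 spread by 38.7% to 40.6%, 50.2% to 58.1% and 70.5% to 85.6%. Col5a2 spread by 57.4% to 63.2%, 66.1% to 74.6% and 76.9% to 78.9%. For these chains the 3 arms did not overlap, while arms of Col5a1 and the type VI chains overlapped. For Col5a1 and Col6a3 the overlap was between the 2 arms of Experiment 2 only. Experiment 1 lay above both, at 71.9% to 93.8% against at most 65.5% for Col5a1. For Col6a3 it lay at 79.3% to 83.5% against at most 73.7%. Spread was taken for the chains only, so the share of all genes that separate like this is not known. Whether the level of a chain has a part in these spreads was not tested. Software version, annotation, depth and experiment cannot be told apart here either. At 30 h of Experiment 1 the means of Col1a1 and Col3a1 were 1.80 and 3.80 UMIs per thinned cell, with spreads of 137% and 133%. At 0 h without Dox in Experiment 2 they were 1.85 and 3.98, with spreads of 70% and 94.9%. This is 1 pair of libraries with close means. Across the arms, Col1a1 had its highest means with Dox, 4.43 to 5.68, where its spread was lowest. Neither observation was tested. Col11a1, at 0.00184 to 0.171 UMIs per thinned cell, was too sparse for this measure.

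**Figure D5:**
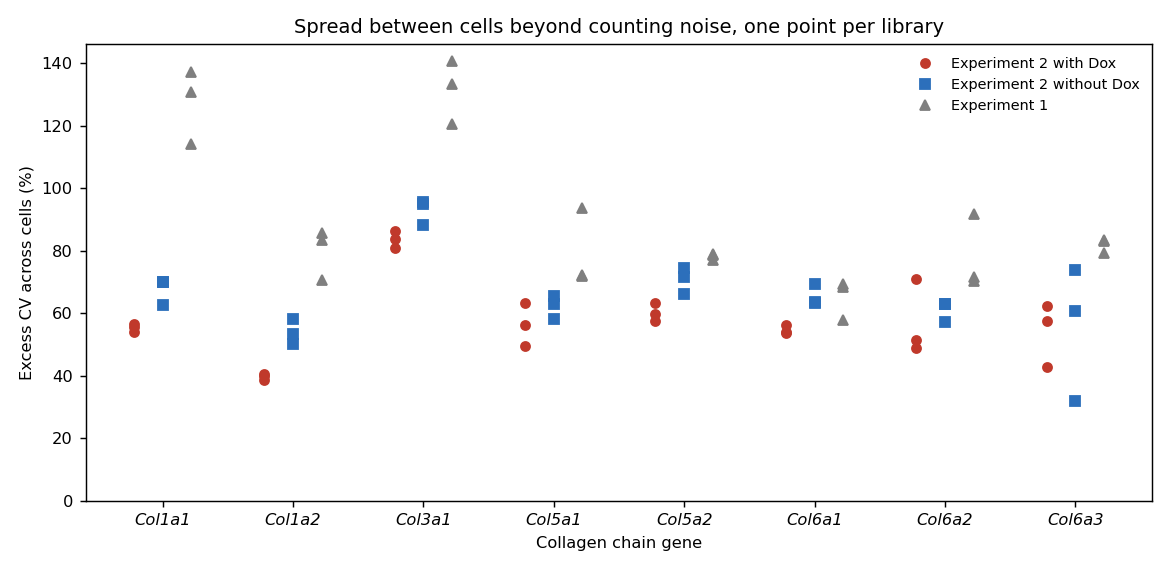
Excess coefficient of variation across thinned cells, in percent, for 8 chains, with 1 point for each library coloured by arm. Points of Col1a1, Col1a2, Col3a1 and Col5a2 separate by arm, with the Experiment 1 libraries highest, and those of Col6a1 lie between 53.7% and 69.3%.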

How the data were processed

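Single NIH3T3-CG cells were profiled in 9 libraries with the 3′ kit of 10x Genomics. What the authors deposited are raw UMI counts, 1 matrix for each library; per the submitters' processing notes they came from Cell Ranger on the build mm10, and per the file headers from software version 3.1.0 in Experiment 1 and 6.0.1 in Experiment 2. Whether counting used the strand is not given in the sources used here. Features were joined by gene ID (30407 shared; the others held 0.071% to 0.858% of UMIs).

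Barcodes under 5000 UMIs or over 10% mitochondrial UMIs were left out, and the 18733 that stayed were summed per library. Genes were tested with edgeR 4.0.16 in R 4.3.3 (filterByExpr, TMM factors, quasi-likelihood F test, Benjamini-Hochberg over all genes, threshold 0.05). SAG over 0 h used the arm as a block; comparisons by time used condition and experiment, and those of Dox and of experiment used SAG time as a term. Standard errors are the change over the square root of F. DESeq2 1.42.0 was the other tool. Differences at single times take log2 CPM after adding a prior count, 2, to each library. For values per cell, Python 3.11.15 (numpy 2.4.6) thinned cells to 10000 UMIs, and log2 values add 1. The excess coefficient of variation is the square root of (variance minus mean) over the mean. Scripts were tested on simulated data. Doublets were not called; leaving out the 5% of barcodes with most UMIs was an alternative. Intervals are 95% and cover counting error only.

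Replicate numbers pair libraries by experiment, as the titles name it. Deviations from the group mean of libraries of the same experiment correlated at 0.771, 0.638 and 0.804 over 14354 genes for the 3 pairs of times.

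The members, lists and tests were chosen with earlier results of these data known. Named are the 9 members; the 8 genes with the highest median r across cells with each sum (at least 0.05 UMIs per thinned cell); and, from each list, up to 4 called genes by p, or the 2 of smallest p where none was called. Of these, the text gives those whose role is stated. Promoter sequences are from RefSeq (GRCm38.p6) and matched 7 of the 9 members.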

Additional observations from a re-analysis of the deposited data

How the results depend on the processing

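Depth limits Col11a1 most, with 9 to 18 UMIs per library in Experiment 1. Leaving SAG time out as a term, 2 chains (Col11a1 and Col6a3) and 194 genes were called with Dox; in the other alternatives on all 6 libraries the same 8 chains were called higher, except with up to 20% mitochondrial UMIs, where Col5a1 was not called; Col3a1 was called lower there, with DESeq2 and with thinned cells. Without the replicate block, edgeR called 0 genes in SAG over 0 h (781 at unadjusted p under 0.05), at 30 h (85), at 17 to 19 h (35) and at 30 h over 17 to 19 h (9). With SAG over 0 h, the genes called numbered 1214 with DESeq2, 6 without TMM factors, 2244 with no filter on low counts (2 chains), 151 with at least 10000 UMIs, 182 with up to 20% mitochondrial UMIs and 159 with cells thinned to 5000 UMIs. At 30 h they were 12, at 17 to 19 h 7 and at 30 h over 17 to 19 h 0 with DESeq2; 210, 43 and 16 with no filter; 237, 43 and 9 with up to 20% mitochondrial UMIs; 26 and 9 at 30 h and 17 to 19 h with thinned cells; 109 and 29 at the same times without the 5% of barcodes with most UMIs; and 0 at 30 h over 17 to 19 h without TMM factors or with at least 10000 UMIs. With Dox, thinned cells gave 3266. The difference at 30 h with Dox called 10 genes with no filter, 8 with up to 20% mitochondrial UMIs and 2 without the top 5%. Between experiments, 2 chains were called without TMM factors, with up to 20% mitochondrial UMIs, with thinned cells and without SAG time as a term. The cause of these changes was not tested.

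Signs turned in SAG over 0 h for Col1a1 (0.19 without TMM factors, 0.038 with up to 20% mitochondrial UMIs), Col5a2 (0.23 without TMM factors, 0.028 with no filter, 0.010 with no replicate block) and Col6a3 (0.087 without TMM factors), none of them called. With Dox, Col3a1 was at 0.039 without TMM factors. Between experiments without TMM factors, Col1a2 was at -0.065, Col3a1 at -0.094, Col5a1 at -0.39, Col5a2 at -0.41 and Col6a2 at -0.088, and Col5a1 was at -0.066 with up to 20% mitochondrial UMIs. Col11a1 per Col5a1 was at -0.018 with SAG with up to 20% mitochondrial UMIs. Leaving out 1 library at a time, the SAG estimate ranged from -0.18 to 0.078 for Col1a1 and -0.076 to 0.050 for Col5a2, and that between experiments from -0.16 to 0.25 for Col5a1, -0.089 to 0.21 for Col5a2, -0.47 to 0.23 for Col6a1 and -0.098 to 0.78 for Col6a2.

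Leaving out 1 library at a time, chains called ranged from 0 to 2 in SAG over 0 h, 0 to 3 at 30 h, 6 to 9 with Dox and 1 to 2 between experiments, and 0 in the other comparisons. Genes called ranged from 0 to 3964, 1 to 1276, 2956 to 4301 and 2656 to 5262 in the same comparisons, from 8 to 243 at 17 to 19 h, 0 to 72 at 30 h over 17 to 19 h and 0 to 163 in the difference at 30 h with Dox. The last could not be fitted without the 0 h or 30 h library with Dox. Leaving out 1 arm, the shift with SAG ranged from -0.37 to -0.24 for Col1a1 per Col1a2, -0.96 to -0.42 for Col6a3 per Col6a1, 0.30 to 0.50 for type VI per fibrillar, -0.24 to 0.33 for Col11a1 per Col5a1, -0.22 to 0.014 for Col6a1 per Col6a2, 0.081 to 0.49 for Col5a2 per Col3a1, -0.27 to -0.12 for Col3a1 per Col1a1 and 0.13 to 0.32 for Col5a1 per Col5a2.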

Other observations

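Crtap, which encodes a partner of prolyl 3-hydroxylase in collagen folding, had 1, 1 and 0 UMIs at 0, 19 and 30 h with Dox and 0 UMIs in each of the 3 libraries without Dox of Experiment 2, against 61, 36 and 40 UMIs at 0, 17 and 30 h of Experiment 1. The experiments were counted with different software versions and feature lists, which cannot be told apart from the experiment.

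Lox, the crosslinking enzyme, was among the genes most like both sums of chains across cells. Over SAG time its levels were lower than at 0 h. It had 551 and 448 CPM at 19 and 30 h with Dox against 927 at 0 h, 421 and 467 against 581 without Dox, and 545 and 483 at 17 and 30 h of Experiment 1 against 791. It was below the 0 h level of its own arm in 6 of 6 SAG libraries, as were 9.37% of 14354 genes. Its estimate was -0.64 ± 0.14 on the log2 scale (edgeR, adjusted p = 0.0628). Cd248, another gene alike across cells, was estimated at 1.04 ± 0.23 higher with SAG (adjusted p = 0.0656).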
